A study of Mus musculus with 8 samples.

Results

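The genes of 10 factors of B cell identity were followed through the first cell cycle of activated mouse B cells by in situ Hi-C, which counts how often 2 places of the genome are ligated to each other in fixed nuclei. They were the Ikaros family genes *Ikzf1*, *Ikzf2* and *Ikzf3*, the Oct-2 gene *Pou2f2* and its coactivator gene *Pou2af1*, the forkhead genes *Foxo1* and *Foxp1*, the Runx genes *Runx1* and *Runx3*, and the zinc finger gene *Bcl11a*. The 10 genes were listed by name and are 10 of the 20807 protein-coding genes that start on an autosome. Each was followed through the 50 kb bin that holds its annotated start (GENCODE M21 on GRCm38), its start bin. All 10 start bins were among the 13304 autosomal start bins kept, and all 10 passed the count minimum of 200 read pairs. Each start bin was read against the bins within 2 Mb on each side, its window.

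Ikaros proteins are zinc finger factors that bind DNA as dimers and are needed for the lymphoid lineages, with Aiolos (*Ikzf3*) most prominent in B cells and Helios (*Ikzf2*) best known from T cells. Oct-2 binds the octamer element of immunoglobulin promoters and recruits the coactivator OBF-1, the product of *Pou2af1*. Foxo1 and Foxp1 act in early B cells, where Foxo1 drives recombination genes and signalling through the antigen receptor removes it from the nucleus, and Runx factors bind DNA with the partner Cbfb. Bcl11a is a zinc finger repressor without which B cells do not form.

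The study asked when the folding of chromosomes changes as naive B cells are activated, divide and become plasmablasts. It also used Hi-C of naive cells, expanded cells and plasmablasts from an earlier study and measured expression by RNA-seq. Those data are not part of this report. The libraries read here were 8 in 4 groups of 2 biological replicates, all from splenic B cells of mice on a C57BL/6 Pep3b background, given as male. The B cells were isolated as naive and labelled with the division dye CTV. They were cultured with 25 µg/ml of lipopolysaccharide (LPS), a bacterial product that activates B cells. The groups were cells after 3 h, after 10 h and after 33 h (imminent division), each from C57BL/6 mice and sorted as activated cells that had not divided, and cells after 33 h sorted before S phase (pre-S) from C57BL/6 FUCCI mice, whose fluorescent reporters mark the phase of the cycle. Strain and sort gate therefore cannot be told apart from the pre-S group, and both 33 h groups were compared with the same 10 h libraries. The pre-S cells were sorted as undivided too. The paper calls the imminent division cells bulk, and their gate had no marker of phase, so that group can hold pre-S cells. The 2 groups of 33 h are thus not separate, successive phases. Each library pools many cells, so a contact made in fewer cells and a contact made less often per cell cannot be told apart.

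The libraries held 88703088 to 218945191 read pairs. Of the pairs with both ends on autosomes, 70.9% to 75.1% joined 2 places of the same autosome. Imminent division replicate 2 stood apart on the sex chromosomes, with 3.74% of read ends on X against 2.39% to 2.84% in the other 7 libraries and 0.0490% on Y against 0.0804% to 0.123%. The study gives its animals as male, and the sex behind this library was not tested. The analysis used autosomes only, and results were also computed without that library. No expression was measured here, and the compartment sign did not tell cell types apart, since 8 of 8 B cell markers, 6 of 6 T cell markers and 4 of 4 myeloid markers lay in the active A compartment by their mean.

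Of the 10 start bins, 9 were richer in contacts than the average for their distance, and *Ikzf2* was poorer. The level used here is observed over expected, the read pairs that join a start bin to its window divided by the mean for all kept autosomal bin pairs at the same distances in the same library. Averaged over the 8 libraries, it ran from 0.678 at *Ikzf2* through 1.33 at *Pou2af1* and *Ikzf1* to 1.98 at *Foxo1*. *Foxo1* lay at the percentile 99.4 of all start bins, *Bcl11a* at 97.6 and *Foxp1* at 96.8, while *Ikzf2* lay at 10.3. In that order *Foxo1* was followed by *Bcl11a*, *Foxp1*, *Runx3*, *Ikzf3*, *Runx1*, *Pou2f2*, *Ikzf1* and *Pou2af1*. The ranges over the libraries overlapped for every pair of neighbours in this order except *Pou2af1* and *Ikzf2*, although *Foxp1* was above *Runx3*, and *Pou2f2* above *Ikzf1*, within each of the 8 libraries.

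**Figure D1:**
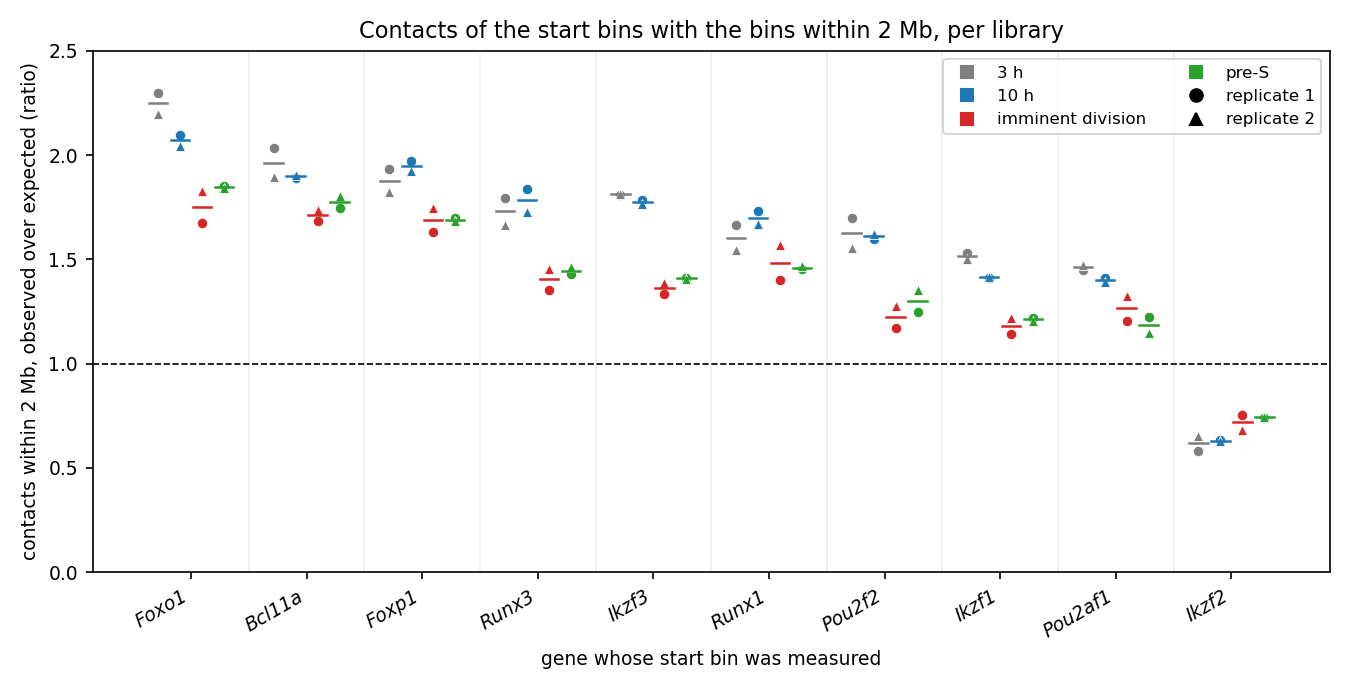
Observed over expected contacts of each start bin with its window (vertical axis, a ratio with 1 as the average for the distance), one point per library, coloured by group, with a line at the mean of 2 libraries. *Ikzf2* is the gene below 1 in all 8 libraries, and the 33 h values of *Ikzf3* (1.34 to 1.41) lie below its values at 3 h and 10 h (1.77 to 1.81).

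*Ikzf1*, the founding Ikaros gene, starts in chr11:11649967-11699966 and runs over chr11:11685003-11772926 on the plus strand. Its contacts stayed close to the gene: 91.2% ± 0.405 (SD, n = 2) of the window's read pairs at 10 h fell within 200 kb, and only 6.25% of its partner bins were in the A compartment. The bin 200 kb upstream, with the starts of *Spata48* and *Zpbp*, was its strongest distant partner, at 3.60 times the expectation on average. The window level was 1.53 and 1.502 in the libraries of 3 h, 1.41 and 1.416 in those of 10 h, 1.141 and 1.22 in imminent division and 1.22 and 1.21 in pre-S. All 4 libraries of 33 h lay below all 4 earlier ones. In 3 h cells the share within 200 kb was 91.7% ± 0.241, in imminent division 84.6% ± 2.52 and in pre-S cells 89.1% ± 0.331.

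*Ikzf2*, which encodes Helios, starts in chr1:69650136-69699660 on the minus strand and was the one gene in the inactive B compartment, with a score below 0 in 8 of 8 libraries. Its window level was 0.583 and 0.655 in the libraries of 3 h, 0.633 and 0.629 in those of 10 h, 0.755 and 0.682 in imminent division and 0.741 and 0.743 in pre-S. Here the 33 h libraries were the higher ones, the opposite order to *Ikzf1*. It had no peak of contacts close by, and its 2 strongest distant partners lay 1900 kb and 2000 kb upstream, in bins with the starts of *Atic* and *Fn1*, at 2.76 and 2.36 times the expectation on few counts (6 to 21 and 3 to 14 read pairs per library).

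*Ikzf3*, which encodes Aiolos, starts in chr11:98499850-98550049 on the minus strand, among 156 gene starts in its window. The level was 1.81 and 1.81 in the libraries of 3 h, 1.78 and 1.77 in those of 10 h, 1.34 and 1.39 in imminent division and 1.41 and 1.41 in pre-S, so the 2 times of early activation were close together and both 33 h groups lay apart from them. Its percentile among start bins was 92.9 in 3 h cells, 90.4 in 10 h cells, 74.1 in imminent division and 81.2 in pre-S cells. The neighbouring bin 50 kb downstream, which lies in the body of *Ikzf3*, was at 3.23 times the expectation in 3 h cells, 3.47 in 10 h cells, 2.40 in imminent division and 2.48 in pre-S cells.

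*Pou2f2* starts in chr7:25149832-25200003 and lies on the minus strand at chr7:25087344-25179726. Its level was 1.70 and 1.55 in the libraries of 3 h, 1.60 and 1.62 in those of 10 h, 1.17 and 1.28 in imminent division and 1.25 and 1.35 in pre-S, and again no 33 h library reached an earlier one. That start bin holds the outer end of the annotated gene but no protein-coding transcript start of the basic annotation. Those starts, 8 in all, lie in the bin 50 kb downstream, chr7:25100289-25149835. The promoter that RefSeq gives for *Pou2f2* is there too. The sequence is printed because the contact with that bin changed, as described further on. It is chr7:25132411-25132710 on the minus strand (RefSeq, GRCm38.p6), 250 bases before to 50 after the start, and the capitals mark a GATC, the site that MboI cuts to make the fragments counted here, and a TGTGGT, the core of the Runx motif.
Pou2f2: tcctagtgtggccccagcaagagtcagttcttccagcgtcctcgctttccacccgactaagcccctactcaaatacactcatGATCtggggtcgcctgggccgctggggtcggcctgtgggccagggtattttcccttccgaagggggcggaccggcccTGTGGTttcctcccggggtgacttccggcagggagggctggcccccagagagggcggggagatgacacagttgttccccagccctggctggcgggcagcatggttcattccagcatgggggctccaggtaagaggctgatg

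*Pou2af1* starts in chr9:51200014-51250225 on the plus strand. Its level was 1.45 and 1.47 in the libraries of 3 h, 1.41 and 1.39 in those of 10 h, 1.204 and 1.33 in imminent division and 1.22 and 1.15 in pre-S. Its nearest insulation minimum, a bin that few contacts cross, lay 100 kb downstream in the bin with the start of *1810046K07Rik*, and it was the nearest one in all 4 groups.

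*Foxo1* starts in chr3:52249623-52299877 on the plus strand and had the highest level of the 10. Its level was 2.30 and 2.198 in the libraries of 3 h, 2.10 and 2.05 in those of 10 h, 1.68 and 1.83 in imminent division and 1.85 and 1.84 in pre-S. The contacts were one-sided. Only 18.3% and 18.0% of the read pairs at 10 h went upstream, where 49.8% was the expectation from distance. The strongest distant partners were a pair of neighbouring bins 500 kb and 550 kb downstream without a protein-coding gene, at chr3:52749463-52799947 and chr3:52799944-52850130, with 11.8 and 12.3 times the expectation on average. At 550 kb the ratio was 16.1 for 3 h, 13.4 for 10 h, 8.60 for imminent division and 10.98 for pre-S, on 143 to 308 read pairs per library.

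*Foxp1* is the longest of the genes, 597 kb on the minus strand, and starts in chr6:99499852-99550437. The level of its start bin was 1.93 and 1.82 in the libraries of 3 h, 1.97 and 1.92 in those of 10 h, 1.63 and 1.75 in imminent division and 1.70 and 1.68 in pre-S. Its contacts ran downstream along its own body and beyond, with peaks 550 kb downstream inside the gene (6.70 times the expectation on average) and 1000 kb downstream in a bin without a protein-coding gene (10.1 times). The share going upstream was 21.6% and 21.2% in the 3 h libraries, 22.5% and 19.9% in the 10 h libraries, 27.8% and 26.9% in imminent division and 24.6% and 26.5% in pre-S. The upstream share was thus higher in all 4 libraries of 33 h than in the 4 earlier ones. *Foxp1* has shorter transcripts that start 100 kb to 500 kb downstream of the start bin. The promoters at both ends are printed since both bins were tested, as described further on: the first, chr6:99520944-99521243, lies in the start bin, and the other, chr6:99028249-99028548, in the bin 500 kb downstream (both minus strand, RefSeq, GRCm38.p6). Capitals mark GATC, which the other one does not hold.
Foxp1 in the start bin: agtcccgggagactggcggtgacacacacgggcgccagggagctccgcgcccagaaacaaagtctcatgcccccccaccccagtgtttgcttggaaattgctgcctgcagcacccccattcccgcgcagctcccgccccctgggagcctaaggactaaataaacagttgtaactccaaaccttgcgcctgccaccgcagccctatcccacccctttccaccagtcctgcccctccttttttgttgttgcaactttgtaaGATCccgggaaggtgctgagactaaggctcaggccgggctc
Foxp1 500 kb downstream: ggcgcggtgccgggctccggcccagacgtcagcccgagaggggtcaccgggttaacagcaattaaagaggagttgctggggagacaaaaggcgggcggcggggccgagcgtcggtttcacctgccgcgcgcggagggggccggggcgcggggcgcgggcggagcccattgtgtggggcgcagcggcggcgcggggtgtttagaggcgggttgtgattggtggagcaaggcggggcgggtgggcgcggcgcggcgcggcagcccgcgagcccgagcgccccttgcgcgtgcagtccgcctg

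*Runx1* starts in chr16:92800580-92849974 on the minus strand and *Runx3* in chr4:135100345-135149989 on the plus strand, and all of the partner bins of both, 100% of each window, were in the A compartment. *Runx1* was at 1.66 and 1.54 in the libraries of 3 h, 1.73 and 1.67 in those of 10 h, 1.40 and 1.57 in imminent division and 1.45 and 1.47 in pre-S. *Runx3* was at 1.79 and 1.67 in the libraries of 3 h, 1.84 and 1.73 in those of 10 h, 1.35 and 1.45 in imminent division and 1.43 and 1.46 in pre-S. The 33 h libraries of *Runx3* lay below all earlier ones, while for *Runx1* imminent division replicate 2 was above the lowest library of 3 h. Both genes have a far (distal) and a near promoter, and the distal ones, which lie in the start bins, are printed because both hold 2 copies of the Runx core motif close together. They are chr16:92826025-92826324 (minus strand) for *Runx1* and chr4:135120395-135120694 (plus strand) for *Runx3* (RefSeq, GRCm38.p6). Capitals mark ACCACA, the Runx core TGTGGT read on the other strand, and in *Runx3* also one TGGGAA, the core of the Ikaros motif.
Runx1 distal: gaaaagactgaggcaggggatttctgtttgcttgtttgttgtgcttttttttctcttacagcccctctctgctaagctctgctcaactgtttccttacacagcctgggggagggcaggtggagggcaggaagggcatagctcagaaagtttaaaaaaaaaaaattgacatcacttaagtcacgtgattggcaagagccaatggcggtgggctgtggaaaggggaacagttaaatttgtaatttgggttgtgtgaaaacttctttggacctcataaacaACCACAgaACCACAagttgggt
Runx3 distal: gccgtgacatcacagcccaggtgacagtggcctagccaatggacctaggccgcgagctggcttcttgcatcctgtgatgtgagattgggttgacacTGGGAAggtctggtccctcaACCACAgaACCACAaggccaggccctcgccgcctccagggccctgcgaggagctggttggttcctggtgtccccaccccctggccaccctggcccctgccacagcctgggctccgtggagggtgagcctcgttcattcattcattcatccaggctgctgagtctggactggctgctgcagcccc

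The RefSeq table held promoter windows of 8 of the 10 genes, 13 windows in all, each searched on both strands. The Runx core TGTGGT was found in 3 of the 13, where 16.8% of all 32851 promoters of this length hold it, and the Ikaros core TGGGAA in 3 of the 13 against 25.6%. The octamer ATGCAAAT (1.74% of all promoters) and the forkhead core TGTTTAC (3.65%) were in none, and GATC was in 5 of the 13 against 48.0%. Such a match is a run of letters in a window and no measure of binding.

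*Bcl11a* starts in chr11:24049955-24099360 on the plus strand, a bin it shares with *A830031A19Rik*. It lay close to the border between compartments, with 46.2% of its partner bins in A. Its level was 2.03 and 1.89 in the libraries of 3 h, 1.89 and 1.90 in those of 10 h, 1.68 and 1.74 in imminent division and 1.75 and 1.81 in pre-S. Its contacts ran downstream over a long stretch to bins 1250 kb and 1800 kb away, which were at 12.2 and 12.9 times the expectation, and 1800 kb was the highest mean of any partner at least 200 kb away among the 10 genes. At 1250 kb, in a bin without a protein-coding gene, the counts were 58 and 99 in the libraries of 3 h, 81 and 115 in those of 10 h, 96 and 121 in imminent division and 69 and 68 in pre-S, which is 13.4, 14.2, 9.69 and 11.5 times the expectation in the order of the groups. *Bcl11a* met the B partners of its window more than the A partners, at 4.05 ± 0.0504 against 1.32 ± 0.0152 times the expectation at 10 h (SD, n = 2). Its own compartment score at 10 h was near 0, at 0.00488 and -0.0437 in the 2 libraries. The genes that were in A in every library and had B partners met their A partners more. The share going upstream was 21.5% and 21.1% in the 3 h libraries, 20.03% and 18.3% in the 10 h libraries, 24.0% and 26.1% in imminent division and 21.1% and 21.5% in pre-S. The pre-S libraries thus lay where the 3 h libraries did.

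**Figure D2:**
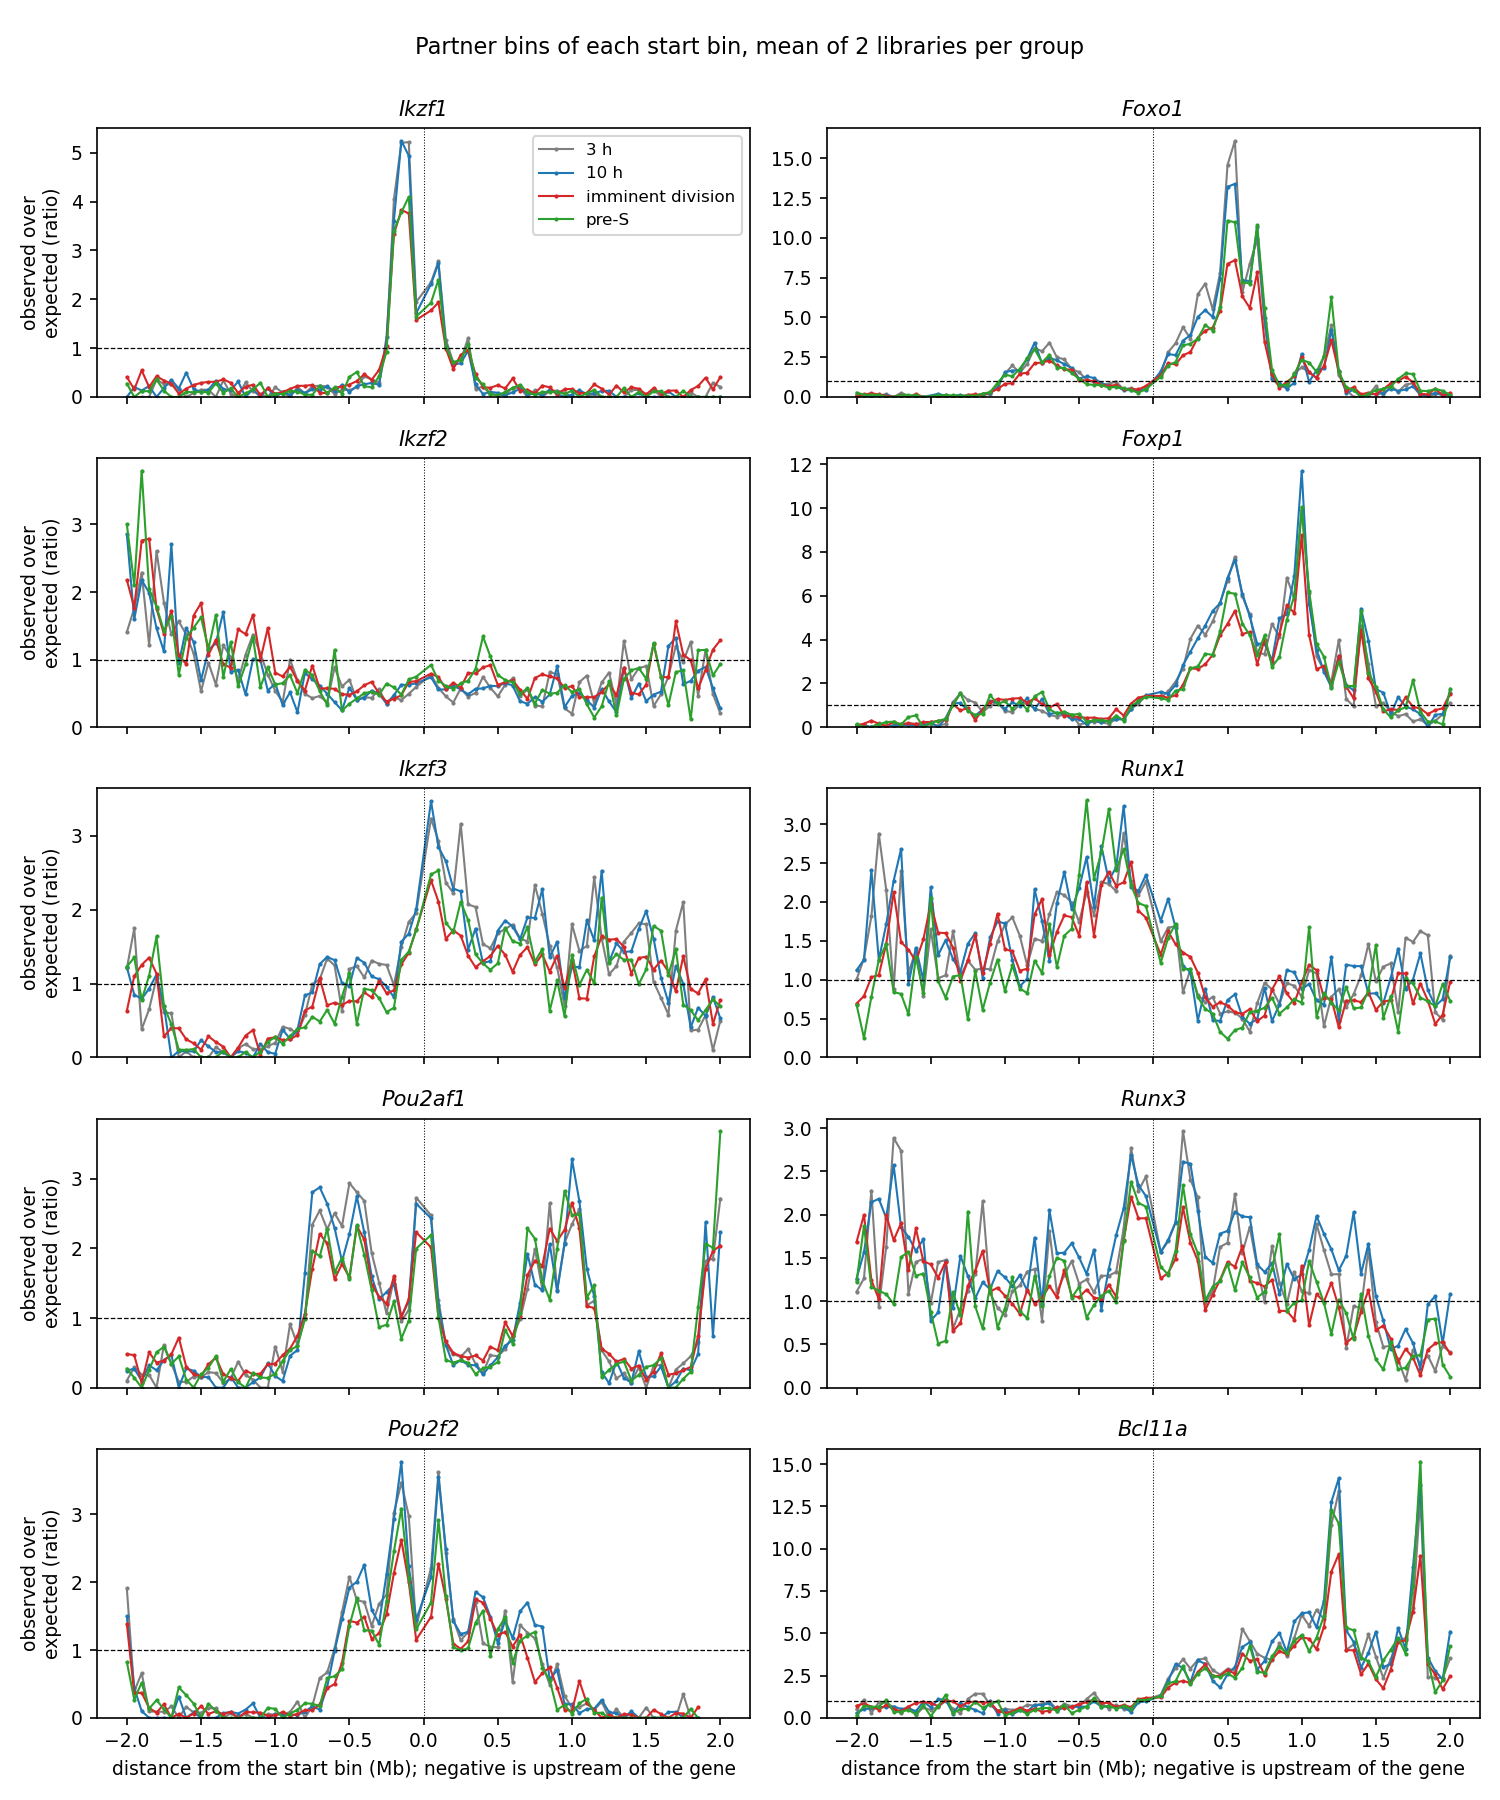
Observed over expected contacts of each start bin with the bins of its window (vertical axis, ratio, scale per gene) against the distance from the start bin in Mb, upstream to the left, as the mean of 2 libraries per group. *Foxo1*, *Foxp1* and *Bcl11a* show peaks downstream with means of 10.1 to 12.9, the contacts of *Ikzf1* fall away beyond 200 kb, and *Ikzf2* has no peak near its start.

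Start bins at large moved in the same direction as these genes, and the values above are read against that. Over all 13304 start bins the 10th and 90th percentile of the level were 0.620 and 1.78 in 10 h replicate 1, 0.628 and 1.76 in replicate 2, 0.731 and 1.49 in imminent division replicate 1, 0.685 and 1.57 in replicate 2, 0.708 and 1.51 in pre-S replicate 1 and 0.704 and 1.53 in replicate 2. High levels were lower and low levels higher at 33 h across all start bins, which is the direction of the 9 high genes and of *Ikzf2*. The tests of summed contacts and of bin pairs use offsets fitted on abundance (a loess curve per library), which take out such a shift between bins of many and few contacts, and a change is then relative to bins of like abundance. The compartment and insulation scores have no such offsets.

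From 3 h to 10 h no gene's summed contacts, the read pairs of the start bin with its whole window, passed the test. edgeR's quasi-likelihood test, with the false discovery rate held at 5% over all start bins, called 0 of 10 genes and 0.0677% of all 13301 start bins tested. DESeq2 called 0 as well, and 2 genes had an unadjusted p under 0.05: *Foxo1*, with a log2 change of -0.13 (SE 0.04, adjusted p = 0.183), and *Ikzf1*, with -0.12 (SE 0.04, adjusted p = 0.244). The median log2 change of the 10 genes was -0.04, beside 0.00 over all start bins.

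At imminent division the summed contacts of *Pou2f2*, *Ikzf3*, *Runx3* and *Ikzf1* were lower than at 10 h, and those of *Bcl11a* were higher. The fall was deepest at *Pou2f2*, by 0.24 on the log2 scale (SE 0.04, adjusted p = 0.000156), from counts of 2165 and 2824 at 10 h and 2762 and 3592 in the deeper libraries of imminent division. *Ikzf3* fell by 0.18 (SE 0.04, adjusted p = 0.00113), *Runx3* by 0.13 (SE 0.04, adjusted p = 0.00658) and *Ikzf1* by 0.13 (SE 0.04, adjusted p = 0.0088). *Bcl11a* rose by 0.10 (SE 0.04, adjusted p = 0.0233), but its direction was not stable: the change was -0.08 with TMM factors, -0.08 with DESeq2 and -0.10 with the coverage of the bin in the offsets, none of which passed. In all, 1 of 10 genes was higher and 4 were lower, 5 of 10, beside 44.1% of all start bins (22.2% higher and 21.9% lower), so the count of genes was near the background. The other 5 lay between -0.02 and 0.04 and did not pass. Without imminent division replicate 2 the same 5 genes were called, with *Pou2f2* at -0.26 and *Bcl11a* at 0.13.

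*Pou2f2* and *Ikzf3* passed with any 1 of the 8 libraries left out, and the other 3 did not. *Ikzf1* missed the threshold without 10 h replicate 1 (-0.14), 10 h replicate 2 (-0.12) or imminent division replicate 1 (-0.12), *Runx3* without 10 h replicate 1 (-0.11) or imminent division replicate 1 (-0.11), and *Bcl11a* without 10 h replicate 1 (0.08), 10 h replicate 2 (0.11) or imminent division replicate 1 (0.09). The count was 2 without 10 h replicate 1, 3 without 10 h replicate 2 and 2 without imminent division replicate 1. In the same fits the share of all start bins called was 23.8%, 27.4% and 30.7%. With the coverage of each bin in the offsets *Pou2f2* was at -0.09 and *Runx3* at -0.06, and neither passed. With all partners on the chromosome above an interaction filter, *Ikzf1* was at 0.04 and *Runx3* at 0.04, against the direction given, and only *Pou2f2* and *Ikzf3* passed. The interchromosomal coverage of the 10 start bins ran from 0.622 times the median bin at *Ikzf2* to 1.87 times at *Runx1*, and its part in these changes beyond that fit was not tested.

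Pre-S cells, which had not yet entered S phase, had lower summed contacts than 10 h cells at *Pou2f2* (-0.13, SE 0.04, adjusted p = 0.0204) and *Ikzf3* (-0.12, SE 0.04, adjusted p = 0.0308). *Bcl11a* (0.15, SE 0.04, adjusted p = 0.00376) and *Foxo1* (0.10, SE 0.04, adjusted p = 0.0403) were higher. Both rises rested on the offsets: with TMM factors *Foxo1* was at -0.07 and *Bcl11a* at 0.00265, with DESeq2 they were at -0.07 and -0.00419, and with bin coverage in the offsets *Bcl11a* was at -0.0244. That was 2 genes higher and 2 lower, 4 of 10, beside 37.1% of all start bins (19.1% higher and 18% lower). Without 10 h replicate 1 none of the 4 passed (*Bcl11a* 0.14, *Foxo1* 0.10, *Pou2f2* -0.15, *Ikzf3* -0.12). Without 10 h replicate 2 (0.09, -0.12 and -0.12) or pre-S replicate 1 (0.09, -0.08 and -0.13), *Foxo1*, *Pou2f2* and *Ikzf3* did not pass, and without pre-S replicate 2 *Foxo1* (0.12) and *Ikzf3* (-0.10) did not. With partners within 1 Mb, *Pou2f2* (-0.10), *Foxo1* (0.09) and *Bcl11a* (0.10) missed the threshold.

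Between the 2 groups of 33 h, no gene differed past the threshold in its summed contacts: 0 of 10 were called by edgeR's quasi-likelihood test and 0 by DESeq2, beside 4.11% of all start bins. Only *Pou2f2* had an unadjusted p under 0.05, with -0.10 (SE 0.04, adjusted p = 0.162) at imminent division over pre-S. The remaining differences lay between -0.07 and 0.07, each with an SE of 0.04 or 0.05, so changes of that size could not be told from error in this fit.

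The downstream transcript starts of *Foxp1* had lower summed contacts at imminent division than at 10 h. Tested among all 47333 autosomal bins, of which 16.7% were lower, the *Foxp1* start bin changed by 0.02 (SE 0.04, adjusted p = 0.74) from 10 h to imminent division. Its downstream start bins fell by 0.24 at 500 kb (SE 0.04, adjusted p = 0.000424), 0.29 at 350 kb (SE 0.04, adjusted p = 0.000151), 0.15 at 250 kb (SE 0.04, adjusted p = 0.0125) and 0.13 at 100 kb (SE 0.04, adjusted p = 0.0247). The difference between the start bins of one gene was not itself tested. At pre-S over 10 h, where 19.7% of all these bins were lower, only the bin at 350 kb passed among the *Foxp1* bins, with -0.11 (SE 0.04, adjusted p = 0.0391), and the bins at 500 kb and 350 kb were both lower at imminent division than at pre-S, by -0.18 (SE 0.04, adjusted p = 0.0268) and -0.18 (SE 0.04, adjusted p = 0.028), beside 1.57% of all these bins. The downstream starts here and in the next paragraph were read from this fit only. Other scalings, bin coverage in the offsets and a library left out were not tried for them.

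The RefSeq promoter bin of *Pou2f2*, tested among all autosomal bins too, changed by -0.37 (SE 0.04, adjusted p = 6.49e-05) from 10 h to imminent division and by -0.32 (SE 0.05, adjusted p = 0.000265) to pre-S. The start bin of *Runx3* was at -0.17 (SE 0.04, adjusted p = 0.00576) at imminent division and -0.11 (SE 0.04, adjusted p = 0.055) at pre-S in this fit. Its near promoter, 50 kb downstream, was at -0.11 (SE 0.05, adjusted p = 0.0657) and -0.13 (SE 0.05, adjusted p = 0.0367). The near promoter of *Runx1*, 150 kb downstream, was at -0.03 and 0.04 and passed in neither, like its distal one.

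The compartment score, the first principal component of the contact map in 100 kb bins scaled to 1 SD per library, puts active chromatin above 0 (A, 48.3% of bins) and inactive chromatin below (B). *Ikzf2* was in B in all 8 libraries, *Bcl11a* was in A in 7 of 8 and near 0, and the other 8 genes were in A in every library, led by *Foxo1* at a mean of 1.44. From 3 h to 10 h 0 of 10 genes passed in limma, beside 4.46% of all 23791 bins and 4.21% of the 9892 that hold a start, and 1 gene, *Ikzf2*, had an unadjusted p under 0.05 (0.09, SE 0.04, adjusted p = 0.228).

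From 10 h to imminent division *Bcl11a* moved towards A and *Ikzf1*, *Pou2af1* and *Runx1* moved lower within A. *Bcl11a* was at 0.03 and 0.01 in the libraries of 3 h, 0.00488 and -0.04 in those of 10 h, 0.16 and 0.18 in imminent division and 0.07 and 0.07 in pre-S, and both libraries of imminent division were above all the others. Its difference from 10 h was 0.19 (SE 0.03, adjusted p = 0.000405). *Ikzf1* was at 0.71 and 0.65 in the libraries of 3 h, 0.64 and 0.65 in those of 10 h, 0.49 and 0.53 in imminent division and 0.60 and 0.65 in pre-S. Its difference was -0.14 (SE 0.03, adjusted p = 0.00478), and imminent division was the lowest group. *Pou2af1* differed by -0.09 (SE 0.03, adjusted p = 0.0326) and *Runx1* by -0.08 (SE 0.03, adjusted p = 0.04). That was 1 gene higher and 3 lower, 4 of 10, beside 27% of all bins and 30.7% of those that hold a start (11.7% higher and 19% lower). *Ikzf1* missed the threshold without imminent division replicate 1 (-0.12), *Pou2af1* without either library of 10 h (-0.09 and -0.08) or imminent division replicate 1 (-0.06), and *Runx1* without any library of 10 h (-0.07 and -0.09), imminent division (-0.06 and -0.10) or pre-S (-0.08 each), while *Bcl11a* passed each time.

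Pre-S cells were higher than 10 h cells at *Ikzf2* (0.12, SE 0.04, adjusted p = 0.0347), *Foxo1* (0.12, SE 0.04, adjusted p = 0.0407) and *Bcl11a* (0.09, SE 0.03, adjusted p = 0.0316) and lower at *Pou2af1* (-0.12, SE 0.03, adjusted p = 0.00792), 4 of 10 genes beside 20.5% of all bins and 24.5% of those that hold a start (10.1% higher and 14.4% lower). *Ikzf2* was at -1.02 and -1.04 in the libraries of 3 h, -0.90 and -0.98 in those of 10 h, -1.07 and -0.98 in imminent division and -0.82 and -0.82 in pre-S. Only the pre-S libraries stood apart from the rest, and *Ikzf2* stayed in B throughout. All 4 calls were lost without 10 h replicate 2 (*Ikzf2* 0.08, *Foxo1* 0.09, *Bcl11a* 0.07, *Pou2af1* -0.12) or without pre-S replicate 2 (0.12, 0.13, 0.09 and -0.12). Without pre-S replicate 1 *Pou2af1* alone was called, and without either library of imminent division *Foxo1* and *Bcl11a* were not, with adjusted p of 0.0586 and 0.0513 at unchanged values. *Foxo1* (0.15) also missed without 10 h replicate 1.

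At imminent division over pre-S *Bcl11a* was higher by 0.10 (SE 0.03, adjusted p = 0.0262), and *Ikzf2*, by -0.21 (SE 0.04, adjusted p = 0.00352), and *Ikzf1*, by -0.12 (SE 0.03, adjusted p = 0.023), were lower. These 3 of 10 genes stand beside 15.8% of all bins and 17.5% of those that hold a start (8.22% higher and 9.32% lower). *Ikzf2* passed with any 1 library left out, at -0.25 without imminent division replicate 2. *Bcl11a* did not pass without any library of imminent division (0.11 and 0.09) or pre-S (0.10 and 0.10), nor *Ikzf1* without any library of imminent division (-0.10 and -0.14) or without pre-S replicate 2 (-0.09).

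**Figure D3:**
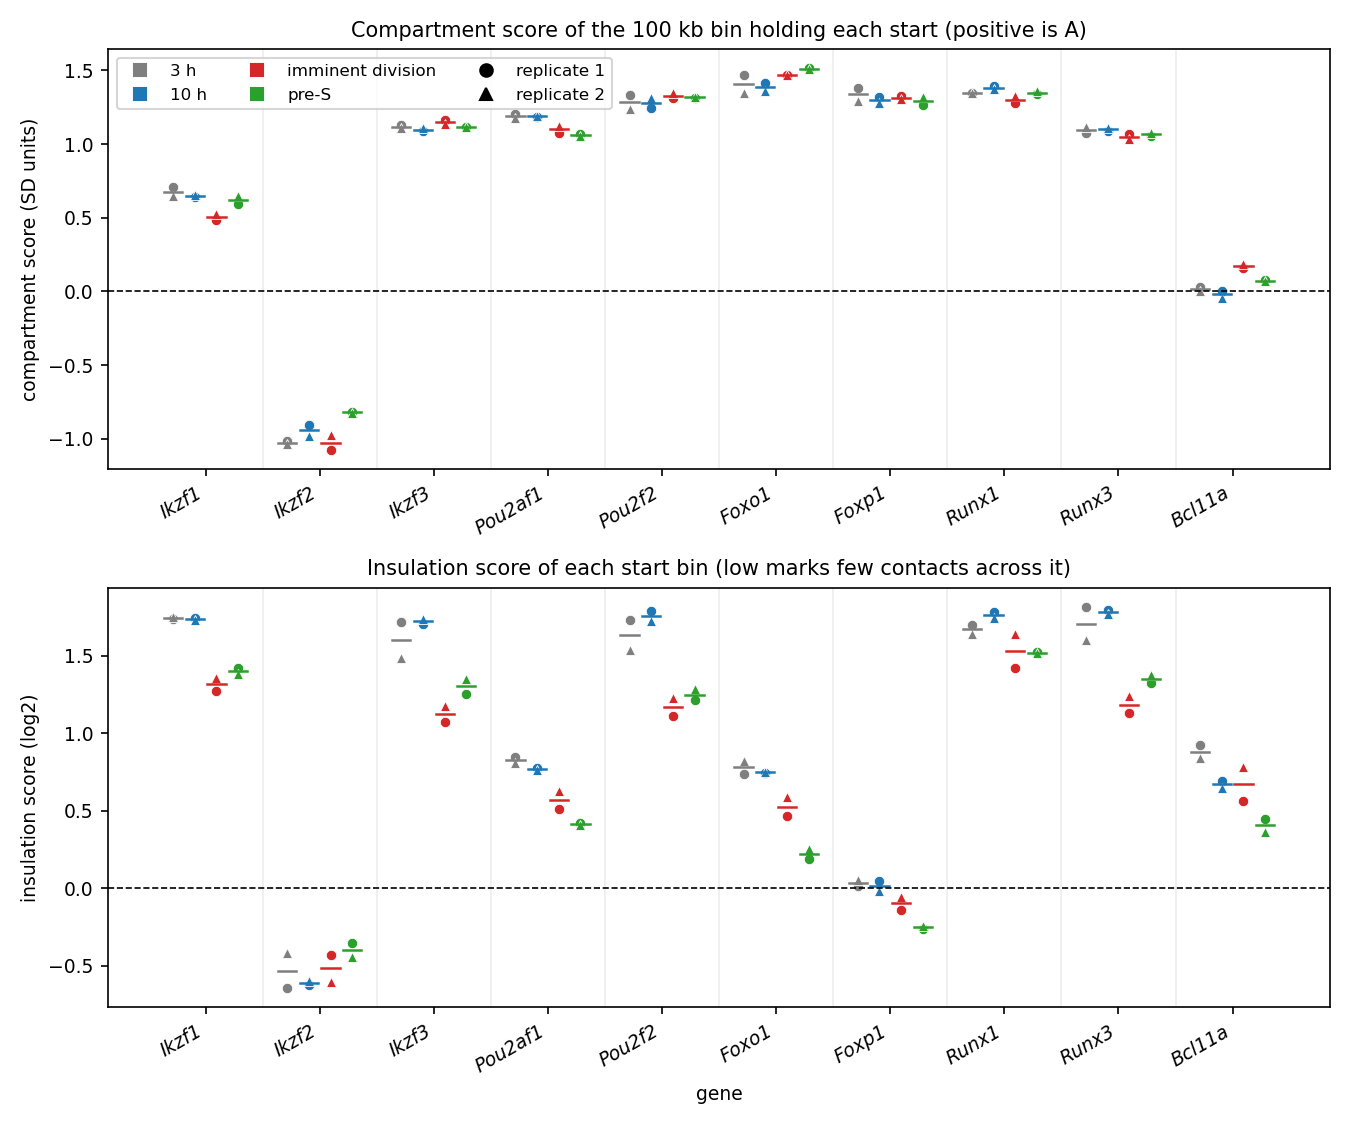
Compartment score of the 100 kb bin that holds each start (upper panel, SD units, above 0 is A) and insulation score of each start bin (lower panel, log2), one point per library with a line at the mean of 2 libraries. *Ikzf2* is below 0 in both panels. The insulation of every gene but *Ikzf2* and *Bcl11a* is lower in each 33 h library than at 3 h and 10 h, at *Runx1* only just (1.6416 against 1.6425).

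The insulation score is the log2 of the mean count in the 500 kb square that joins the bins upstream of a bin with those downstream, less the median of the library, so that a low score marks a bin few contacts cross. The scores differed widely between the 10 genes: *Runx1*, *Ikzf1*, *Runx3*, *Pou2f2* and *Ikzf3* lay at the percentiles 97.6 to 98.9 of all bins, *Foxp1* was at 46.7 and *Ikzf2* at 21.2. The score is made from raw counts, and the interchromosomal coverage of the first 5 of these bins was 1.29 to 1.87 times the median bin. From 3 h to 10 h 0 of 10 passed in limma, beside 0.0324% of all 46318 bins and 0.0233% of the 12877 that hold a start. *Bcl11a* had the only unadjusted p under 0.05, with -0.21 (SE 0.08, adjusted p = 0.261). Without 3 h replicate 1 the count was 2, beside 11.1% of all bins, and without 3 h replicate 2 it was 1, beside 6.06%.

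Contacts across the start bins of 7 genes were fewer at imminent division than at 10 h. *Ikzf3* was at 1.72 and 1.49 in the libraries of 3 h, 1.71 and 1.74 in those of 10 h, 1.07 and 1.18 in imminent division and 1.26 and 1.35 in pre-S, a fall by 0.60 (SE 0.08, adjusted p = 6.25e-05). *Runx3* fell by 0.60 (SE 0.08, adjusted p = 4.98e-05), *Pou2f2* by 0.59 (SE 0.07, adjusted p = 5.02e-05) and *Ikzf1* by 0.42 (SE 0.06, adjusted p = 0.000105). These 4 differences were each several times their error and passed with any library left out. The 4 start bins lay at the percentiles 97.6 to 98.5 of all bins by their mean score. This score has no offsets on abundance, and the changes of bins with like scores were not set beside them. *Runx1*, *Foxo1* and *Pou2af1* fell by 0.20 to 0.23 (adjusted p 0.0113 to 0.0153), and these 3 did not pass without 10 h replicate 1 (-0.21, -0.22 and -0.19), 10 h replicate 2 (-0.25, -0.22 and -0.20) or imminent division replicate 1 (-0.12, -0.16 and -0.14). *Foxp1* (-0.11), *Ikzf2* (0.10) and *Bcl11a* (0.00) did not pass. The 7 of 10 genes stand beside 58.6% of all bins and 67.1% of those that hold a start (56.1% lower), whose median change was -0.21, so the group followed the start bins at large. Without imminent division replicate 2 the same 7 genes were lower.

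At pre-S over 10 h all 10 genes passed, 9 lower and *Ikzf2* higher, beside 60.8% of all bins and 68% of those that hold a start (59.6% lower and 8.45% higher), with a median of -0.35 for the 10 genes and -0.22 for bins that hold a start. Bins with like scores were not set beside the genes here either. *Foxo1* changed most, from 0.75 and 0.75 at 10 h to 0.19 and 0.25 at pre-S, by -0.53 (SE 0.07, adjusted p = 0.000197), and *Pou2f2* next, by -0.51 (SE 0.07, adjusted p = 0.000331). *Ikzf2*, the one rise, went from -0.63 and -0.60 to -0.36 and -0.44, by 0.21 (SE 0.08, adjusted p = 0.0356). *Ikzf2* did not pass without any library of 10 h (0.20 and 0.23) or pre-S (0.17 and 0.26), *Runx1* without 10 h replicate 1 (-0.22), pre-S replicate 1 (-0.24) or pre-S replicate 2 (-0.24), and *Bcl11a* without 10 h replicate 1 (-0.24) or pre-S replicate 2 (-0.22). With a square of 250 kb *Ikzf2* was at 0.06 and did not pass.

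The insulation of *Foxo1* and *Bcl11a* differed between the 2 groups of 33 h. *Foxo1* was at 0.47 and 0.59 at imminent division and at 0.19 and 0.25 at pre-S, a difference of 0.31 (SE 0.07, adjusted p = 0.0131). *Bcl11a* was at 0.57 and 0.78 and at 0.45 and 0.36, a difference of 0.27 (SE 0.08, adjusted p = 0.0424). Neither pair of groups overlapped, and the 2 of 10 genes stand beside 8.87% of all bins and 9.68% of those that hold a start (6.07% higher). Neither passed without imminent division replicate 2 (0.25 and 0.16) or without either pre-S library (0.27 and 0.34 for *Foxo1*, 0.31 and 0.23 for *Bcl11a*), and *Bcl11a* did not pass without either 10 h library, with an adjusted p of 0.0818. The count was 6 without either library of 3 h, beside 28.0% of all bins. With a square of 1 Mb *Foxo1* was at 0.10 and did not pass.

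**Figure D4:**
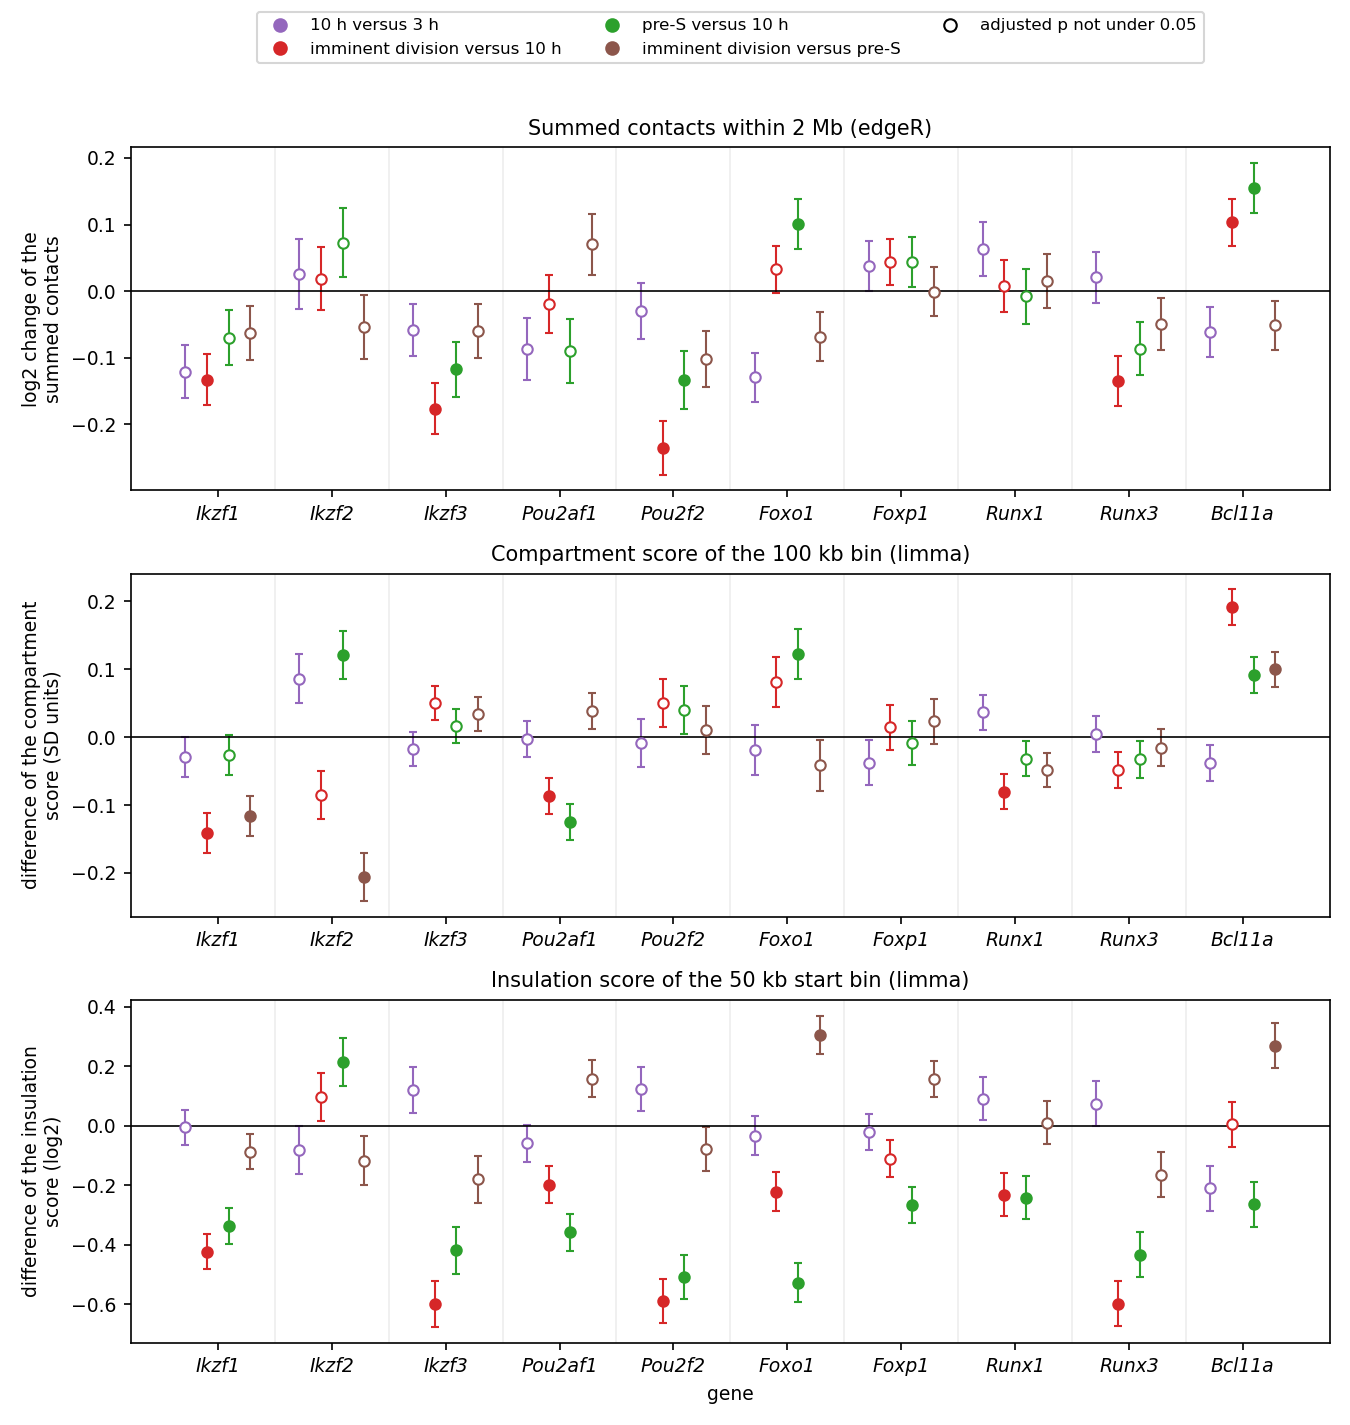
Change of each gene in the 4 comparisons as the first group over the second, with bars of 1 SE, for summed contacts (top, log2), compartment score (middle, SD units) and insulation score (bottom, log2). Filled points passed the false discovery rate of 5% and open points did not. *Pou2f2* and *Ikzf3* are the genes with filled points below 0 in both comparisons with 10 h in the top panel.

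Single partner bins were tested as differential interactions (DIs), pairs of bins whose count differs between groups. Of the pairs within 2 Mb that have a start bin of the 10 genes as an anchor, 490 were abundant enough to be tested, from 16 at *Ikzf1* to 67 at *Runx3*. From 3 h to 10 h edgeR's quasi-likelihood test called 0 of 490 and DESeq2 called 0, with 33 at an unadjusted p under 0.05, beside 0.000617% of all 1458612 pairs and 0.00114% of the 525690 pairs within 2 Mb that touch a start bin.

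At imminent division 17 of the 490 pairs were DIs against 10 h, 4 stronger and 13 weaker, beside 2.03% of all pairs and 3.45% of those that touch a start bin (0.781% stronger and 2.67% weaker). The share at the 10 genes, 3.47%, was that of start bins in general. The weaker ones included the contacts of *Ikzf3* with the bin in its own body 50 kb downstream (599 and 712 read pairs at 10 h, 608 and 719 in the deeper libraries of imminent division, log2 change -0.31, SE 0.07, adjusted p = 0.00746) and with the bin 150 kb downstream that holds the starts of *Pnmt*, *Stard3* and *Tcap* (-0.55, SE 0.13, adjusted p = 0.00445). *Pou2f2* lost contact with its promoter bin 50 kb downstream (-0.35, SE 0.09, adjusted p = 0.0099) and with the next bin, at the starts of *Grik5* and *Zfp574* (-0.37, SE 0.09, adjusted p = 0.0141). With bin coverage in the offsets the first of these was at 0.00315 and the second at -0.14, and neither passed.

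The long contacts of *Bcl11a* with the bins 1200 kb and 1250 kb downstream were weaker too, with -0.60 (SE 0.16, adjusted p = 0.0202) and -0.58 (SE 0.16, adjusted p = 0.0209), but with offsets fitted per distance class they were at -0.21 and -0.19 and did not pass. *Foxp1* was weaker with the bin 350 kb downstream in its own body (-0.50, SE 0.14, adjusted p = 0.0285), *Runx1* with the bin 50 kb downstream in its own body (-0.34, SE 0.09, adjusted p = 0.023), and *Runx3* with the bins 250 kb upstream at *Maco1* and *Rhd* (-0.69, SE 0.19, adjusted p = 0.0244) and 1350 kb downstream at *6030445D17Rik* and *Luzp1* (-1.94, SE 0.49, adjusted p = 0.014). The last of these rested on 13 and 12 read pairs at 10 h and 5 and 7 at imminent division.

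The 4 stronger pairs belonged to *Runx1*, *Foxo1* and *Foxp1*. *Runx1* gained with the bin 300 kb downstream over *Clic6* (13 and 17 read pairs at 10 h, 51 and 77 at imminent division, 1.204, SE 0.28, adjusted p = 0.00559). *Foxo1* gained with the bin 50 kb upstream (67 and 90 read pairs, then 170 and 214, 0.60, SE 0.15, adjusted p = 0.00814). *Foxp1* gained with the bin 250 kb upstream (13 and 14, then 50 and 64, 1.18, SE 0.30, adjusted p = 0.012). In the order of the groups, the *Runx1* pair was at 0.803, 0.474, 1.09 and 0.776 times the expectation, the *Foxo1* pair at 0.607, 0.413, 0.692 and 0.504 and the *Foxp1* pair at 0.373, 0.362, 0.824 and 0.532. The *Runx1* and *Foxo1* pairs were thus higher at 3 h than at 10 h. The remaining pair joined *Runx1* to the bin 150 kb upstream (0.42, SE 0.12, adjusted p = 0.0385). That pair was named after its values were seen.

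The count of 17 depended on single libraries. It was 1 without 10 h replicate 1, 0 without 10 h replicate 2, 11 without imminent division replicate 1 and 4 without imminent division replicate 2. In the same fits 0.528%, 0.202%, 0.669% and 0.986% of all pairs were called. Of the pairs named, *Ikzf3* with the bin 150 kb downstream and *Pou2f2* with the bin 50 kb downstream were the ones that passed without imminent division replicate 2 (-0.59 and -0.36). DESeq2 called 7 of the 490, all weaker. With a background filter of 2-fold in place of 4-fold, which tests more pairs, the count was 6, 3 stronger and 3 weaker: both *Ikzf3* pairs, *Pou2f2* with the bin 50 kb downstream and the stronger pairs of *Runx1* with 300 kb, *Foxo1* with 50 kb and *Foxp1* with 250 kb passed, and the named pairs of *Bcl11a* and *Runx3*, *Foxp1* with 350 kb, *Runx1* with 50 kb and *Pou2f2* with 100 kb did not. Over all 18973 tested pairs within the 10 windows, 109 were stronger and 671 weaker, or 4.11%. That stands beside 2.03% of all pairs at any distance and 3.45% of those within 2 Mb that touch a start bin. The share called ran from 0.295% at *Ikzf2* (4 stronger and 1 weaker of 1697) to 7.504% at *Ikzf3* (7 and 125 of 1759).

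Of the 490 pairs, 6 were DIs at pre-S over 10 h, all weaker, beside 0.597% of all pairs and 0.542% of those that touch a start bin (0.387% weaker). They were *Ikzf3* with the bin 450 kb upstream at *Gjd3* (-1.61, SE 0.38, adjusted p = 0.0144) and with its own body (-0.31, SE 0.08, adjusted p = 0.0356), *Foxp1* with its body at 200 kb and 400 kb downstream (-0.67, SE 0.16, adjusted p = 0.0145, and -0.63, SE 0.16, adjusted p = 0.0327), *Runx1* with its own body (-0.43, SE 0.10, adjusted p = 0.0194) and *Bcl11a* with the bin 150 kb downstream (-0.50, SE 0.13, adjusted p = 0.0398). With bin coverage in the offsets the *Runx1* pair was at -0.04 and those of *Foxp1* at -0.37 and -0.30, and none of the 3 passed. The count was 0 without any one library of 10 h or of pre-S, DESeq2 called 1, and with the 2-fold background filter *Ikzf3* with the bin 450 kb upstream was the 1 pair called.

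At imminent division over pre-S 3 pairs were DIs, all weaker, beside 0.372% of all pairs and 0.352% of those that touch a start bin (0.198% weaker). *Foxo1* was weaker with the bins 1200 kb downstream, at the starts of *Nhlrc3*, *Proser1* and *Stoml3* (37 and 47 read pairs at imminent division, 44 and 35 in the shallower pre-S libraries, -0.997, SE 0.24, adjusted p = 0.0202), and 750 kb downstream, at *Cog6* and *Lhfp* (-0.74, SE 0.19, adjusted p = 0.0441). *Bcl11a* was weaker with the bin 1200 kb downstream (-0.64, SE 0.17, adjusted p = 0.0456), at 8.64 times the expectation against 12.3. None of the 3 passed without imminent division replicate 2 (-1.06, -0.73 and -0.52) or without either pre-S library, the count without 10 h replicate 1, 10 h replicate 2 or imminent division replicate 1 was 1, and DESeq2 and the 2-fold background filter each called 0.

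The 11 relatives of these genes (*Ikzf4*, *Ikzf5*, *Pou2f1*, *Pou2f3*, *Foxo3*, *Foxo6*, *Foxp2*, *Foxp4*, *Runx2*, *Bcl11b* and the Runx partner *Cbfb*) and 11 genes known as their targets were read from the same tests. In summed contacts, 3 relatives were higher and 2 lower at imminent division than at 10 h, 5 of 11 beside 44.1% of all start bins. They included *Runx2* at 0.20 (SE 0.04, adjusted p = 0.000339) and *Foxp4* at -0.23 (SE 0.04, adjusted p = 0.000116), of which the first missed the threshold with bin coverage in the offsets (0.10) and the second with the interaction filter (-0.08). The median of the 11 was 0.03 beside 0.00 over all start bins. At pre-S over 10 h it was again 3 higher and 2 lower, beside 37.1%, with *Foxp2* at 0.41 (SE 0.05, adjusted p = 4.89e-05) and *Bcl11b* at -0.17 (SE 0.05, adjusted p = 0.0139). Both directions rested on the offsets: with bin coverage *Foxp2* was at -0.03 and *Bcl11b* at 0.15, and *Bcl11b* was at 0.07 with TMM factors and 0.06 with DESeq2. *Bcl11b* also did not pass without 10 h replicate 2 (-0.15) or pre-S replicate 1 (-0.12). *Foxp2* was the one relative that differed between the groups of 33 h (-0.23, SE 0.05, adjusted p = 0.0167), beside 4.11% of all start bins, and it was at 0.16 with bin coverage. It did not pass with TMM factors, DESeq2, partners within 1 Mb or the interaction filter (-0.23, -0.23, -0.13 and -0.13), or without imminent division replicate 2 or either pre-S library (-0.19, -0.20 and -0.25).

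Of the 11 targets (*Igll1*, *Vpreb1*, *Vpreb2*, *Dntt*, *Rag1*, *Rag2*, *Il7r*, *Ccr7*, *Klf2*, *Spib* and *Cd36*), 1 was higher and 4 were lower at imminent division than at 10 h, and 8 were lower at pre-S. Of all start bins, 22.2% were higher and 21.9% lower in the first comparison, and 19.1% were higher and 18% lower in the second. *Igll1* and *Vpreb1* share 1 start bin and *Rag1* and *Rag2* another, so these targets stand for 9 bins and the 8 lower at pre-S for 6. *Ccr7*, the lymph node homing receptor, was lower in both (-0.27, SE 0.04, adjusted p = 7.32e-05, and -0.23, SE 0.05, adjusted p = 0.000948), and *Cd36*, a known Oct-2 target, was higher at imminent division (0.16, SE 0.05, adjusted p = 0.016). *Ccr7* starts within the window of *Ikzf3*, so their windows overlap and their summed contacts are not separate results. *Cd36* did not pass with bin coverage in the offsets (0.08) or without 10 h replicate 1 (0.13) or imminent division replicate 1 (0.14). The median over the targets was -0.10 at imminent division and -0.13 at pre-S, beside 0.00 over all start bins in both. None of the relatives or targets passed from 3 h to 10 h in summed contacts.

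In the compartment score, 2 relatives were higher and 1 lower at imminent division than at 10 h and 3 higher and 1 lower at pre-S. Of the targets, 1 was higher and 4 were lower at imminent division, and 1 was higher at pre-S. Of all bins that hold a start, 11.7% were higher and 19% lower in the first comparison, and 10.1% were higher and 14.4% lower in the second. The median over the targets was -0.03 and -0.05. *Bcl11b* was the relative that fell with the smallest p at imminent division over 10 h (limma, -0.12, SE 0.03, adjusted p = 0.0113). At pre-S over 10 h it was *Ikzf5* (-0.18, SE 0.03, adjusted p = 0.00298). *Bcl11b* did not pass without imminent division replicate 2 (-0.11). *Foxo6* was the relative that rose with the smallest p in 3 of the comparisons, by 0.12 from 3 h to 10 h (SE 0.03, adjusted p = 0.0346), 0.30 at imminent division over 10 h (SE 0.03, adjusted p = 5.53e-05) and 0.23 at pre-S over 10 h (SE 0.03, adjusted p = 0.000398). The first of these did not pass without 3 h replicate 1 (0.11), either 10 h library (0.13 and 0.10) or either library of imminent division (0.12 each), or with 250 kb bins (0.06). At imminent division over pre-S 2 relatives were higher and 2 lower, beside 8.22% and 9.32% of bins that hold a start. *Pou2f1* rose with the smallest p (limma, 0.10, SE 0.03, adjusted p = 0.0319) and *Bcl11b* fell with it (-0.13, SE 0.03, adjusted p = 0.0099). Neither passed without imminent division replicate 2 (0.09 and -0.12). The recombination genes *Rag1* and *Rag2* share a bin that fell by 0.23 at imminent division (SE 0.03, adjusted p = 0.000137) and was lower than at pre-S, with -0.16 (SE 0.03, adjusted p = 0.00274). *Klf2*, a Foxo1 target and the 1 target that was higher, rose by 0.13 (SE 0.04, adjusted p = 0.036) and 0.18 (SE 0.04, adjusted p = 0.0111) over 10 h. The first did not pass without any library of 10 h or imminent division (0.13 each), nor the second without either 10 h library (0.18 each) or pre-S replicate 2 (0.15). In the insulation score, 7 of 11 relatives and 8 of 11 targets were lower at imminent division than at 10 h and 7 and 10 were lower at pre-S, beside 56.1% and 59.6% of all bins that hold a start, with *Ikzf4* at -0.84 (SE 0.06, adjusted p = 7.63e-06) and *Ccr7* at -0.77 (SE 0.07, adjusted p = 1.4e-05) those with the smallest p at imminent division. Their medians at imminent division were -0.21 and -0.44, beside -0.21 for all bins that hold a start. At pre-S they were -0.23 and -0.40, beside -0.22. There *Ikzf4* (limma, -0.56, SE 0.06, adjusted p = 0.000133) and *Dntt* (-0.60, SE 0.08, adjusted p = 0.000221) had the smallest p. At imminent division over pre-S *Ikzf4* was lower (-0.28, SE 0.06, adjusted p = 0.015). The shared start bin of *Igll1* and *Vpreb1* was higher (0.30, SE 0.07, adjusted p = 0.0199). Neither passed without imminent division replicate 2 (-0.31 and 0.27), and 9.68% of bins that hold a start passed in the main fit.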

How the data were processed

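In situ Hi-C with MboI was measured in 8 libraries, 2 for each of 4 groups. The authors trimmed and aligned the reads to mm10 with cutadapt and bowtie2 through diffHic, marked duplicates and removed dangling ends. They deposited raw contact counts per pair of 50 kb bins, and the values used here are those counts. The matrices give bins by number only. Bin coordinates were rebuilt here from the midpoints of the MboI fragments of GRCm38, with the autosomes in order of number, then X and Y. All coordinates and the genes assigned to bins rest on this. It was checked by the total number of bins, 53357, and no other check of the order is given here. Raw counts carry each bin's mappability and cut-site density, which as fixed factors cancel in comparisons of one bin between libraries but not between genes. The relative interchromosomal coverage of a bin also varied between libraries, for example from 0.862 to 1.16 at *Foxo1* and from 1.19 to 1.48 at *Pou2f2*. The main fits do not adjust for that. Depth was 88703088 to 218945191 read pairs.

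Of 48088 autosomal bins, 749 with undetermined sequence or coverage over 4-fold from the median were left out. Summed contacts (minimum 200 counts) and bin pairs (minimum 10 counts, 4-fold above background) were tested with edgeR (version 4.0.16) quasi-likelihood fits over all 4 groups with loess offsets, for pairs below and above 1.5 Mb apart. Compartment scores (100 kb) and insulation scores (500 kb square) were tested with limma (version 3.58.1), in R (version 4.3.3). P-values were adjusted by Benjamini-Hochberg over all features, with the threshold at 5%. DESeq2 (version 1.42.0), other normalizations, filters and sizes and each library left out were tried as alternatives. The fits were also run on simulated data, and that outcome is not given here. P-values reflect the spread between the 2 libraries of each group, pooled over the 4 groups and drawn towards the spread of all features tested. Counting error alone is small for summed contacts and larger for pairs of few reads.

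The 10 genes and the lists of relatives, targets and markers were chosen with earlier results of these data known. All 10 genes were named, with up to 2 differential interactions of smallest p per gene and comparison. Distant partners were named from the 2 at least 200 kb away with the highest mean per gene. Of each list, the gene that passed with the smallest p was named per direction and comparison. Sex chromosomes were not used. One gene of the list of targets is not reported here, and counts and medians over that list leave it out.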

Additional observations from a re-analysis of the deposited data

Results flagged for a closer look

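The results below passed the test of the difference between the groups of 33 h, so that the change from 10 h differed between imminent division and pre-S. Both changes are taken from the same 10 h libraries, which cancel in the difference, and strain and sort gate cannot be told apart from the pre-S group.

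In the compartment score, *Ikzf2* was at -0.21 at imminent division over pre-S (limma, adjusted p = 0.00352) and *Ikzf1* at -0.12 (adjusted p = 0.023). *Bcl11a* differed in the opposite direction, by 0.10 (adjusted p = 0.0262). In the insulation score, *Foxo1* was higher by 0.31 (limma, adjusted p = 0.0131) and *Bcl11a* by 0.27 (adjusted p = 0.0424). Among single partner bins, *Foxo1* was at -0.997 with the bin 1200 kb downstream (edgeR, adjusted p = 0.0202) and at -0.74 with the bin 750 kb downstream (adjusted p = 0.0441). *Bcl11a* was at -0.64 with the bin 1200 kb downstream (adjusted p = 0.0456). Of these results, the compartment score of *Ikzf2* was the one that passed with any 1 of the 8 libraries left out.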

How the results depend on the processing

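Numbers of the 10 genes called in summed contacts depended on the scaling. At imminent division over 10 h, 5 were called, against 8 with TMM factors, 8 with DESeq2 and 2 with the interaction filter over all partners on the chromosome, where 55.9%, 50.8% and 48.6% of all start bins were called. For pre-S over 10 h it was 4, against 7 with TMM factors, 8 with DESeq2, 2 with the interaction filter and 1 with partners within 1 Mb, beside 49.4%, 45.5%, 30.4% and 32.9%. At imminent division over pre-S, 0 were called, against 1 with bin coverage in the offsets and 1 with the interaction filter. Directions turned at imminent division over 10 h for *Ikzf1* (0.0372) and *Runx3* (0.0386) with the interaction filter, and for *Bcl11a* with TMM factors (-0.0782), DESeq2 (-0.0809) and bin coverage (-0.10). They turned at pre-S over 10 h for *Foxo1* with TMM factors (-0.0659) and DESeq2 (-0.0724), for *Bcl11a* with DESeq2 (-0.00419) and bin coverage (-0.0244), for *Foxp2* with bin coverage (-0.0321) and for *Bcl11b* with TMM factors (0.0681), DESeq2 (0.0632), bin coverage (0.152) and the interaction filter (0.00774). At imminent division over pre-S *Foxp2* turned with bin coverage (0.163). The cause was not tested.

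In the compartment score, 250 kb bins gave 1 gene in place of 0 at 10 h over 3 h and 5 in place of 3 at imminent division over pre-S, and quantile normalization gave 2 in place of 4 at pre-S over 10 h. In the insulation score, squares of 250 kb and of 1 Mb gave 1 gene each in place of 2 at imminent division over pre-S. Of the 490 pairs, 17 were called at imminent division over 10 h, against 46 with TMM factors, 32 with bin coverage, 7 with DESeq2 and 6 with the 2-fold background filter, and the *Pou2f2* pair at 50 kb turned to 0.00315 with bin coverage. For pre-S over 10 h it was 6, against 12 with TMM factors, 2 with offsets per distance class, 1 with DESeq2 and 1 with the 2-fold filter. At imminent division over pre-S it was 3, against 17 with bin coverage, 1 with offsets per distance class (a stronger pair), 0 with DESeq2 and 0 with the 2-fold filter. Apart from the counts over all pairs given further on, shares of all features in the fits of this paragraph are not given. A change at the genes cannot be told there from a change over all features. The cause was not tested.

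With 1 library left out, the counts in the order 10 h over 3 h, imminent division over 10 h, pre-S over 10 h and imminent division over pre-S were 0, 2 to 5, 0 to 4 and 0 for summed contacts. They were 0, 1 to 5, 0 to 4 and 1 to 3 for the compartment score, 0 to 2, 4 to 7, 7 to 10 and 0 to 6 for insulation, and 0, 0 to 18, 0 to 8 and 0 to 3 for the pairs. No value of the 10 genes, their named pairs or the genes named from the lists changed its sign with a library left out, and other starts were not fitted that way. The shares of all features moved too, in the order of the last 3 comparisons: from 23.8% to 49.7%, 12.6% to 42.6% and 0.0827% to 8.76% for summed contacts, 17.0% to 32.0%, 9.26% to 26.2% and 7.77% to 20.5% for the compartment score, 34.3% to 69.4%, 36.2% to 69.5% and 0.853% to 28.0% for insulation, and 0.202% to 2.40%, 0.0528% to 0.719% and 0.0483% to 0.467% for the pairs.

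Replicate numbers did not pair the libraries in the 2 measures checked: deviations of same-numbered libraries correlated from -0.432 to 0.135 in summed contacts and from -0.216 to 0.224 in the compartment score, over 6 pairs of groups, and insulation and bin pairs were not checked. With 2 libraries per group the sign depends on the numbering alone. The value of -0.432 therefore still marks variation shared between groups, and its source was not tested. With the replicate number as a block, 2 genes were called in summed contacts at pre-S over 10 h, 1 in insulation and 1 of the pairs at imminent division over pre-S, and no other count of genes or pairs moved by over 1.5 times. Shares of all features in these block fits are not set beside these counts.

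Over all start bins, summed contacts at imminent division over pre-S gave 547 calls (288 higher, 259 lower), against 12 with TMM factors (11 higher, 1 lower), 64 with DESeq2, 1564 with bin coverage, 985 within 1 Mb, 181 with the block and 2955 with the interaction filter. Bin coverage gave 3065 at pre-S over 10 h in place of 4939, and 240 at 10 h over 3 h in place of 9. Over all pairs, imminent division over 10 h gave 29643 (9402 stronger, 20241 weaker), against 56377 with TMM factors, 55449 with bin coverage, 17167 with offsets per distance class and 2085 with DESeq2 (15 stronger, 2070 weaker). Pre-S over 10 h gave 8715 (5088 stronger, 3627 weaker), against 11243 with TMM factors (3336 and 7907), 8682 with bin coverage (3187 and 5495), 3268 per distance class and 278 with DESeq2. Several pairs rested on under 20 read pairs a library, which limits their precision.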
